A study of Homo sapiens with 42 samples.

Results

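FOXP1, FOXP2, FOXP3 and FOXP4, the 4 genes of the FOXP subfamily of forkhead transcription factors, were examined at each annotated start site and along the gene body. The members were all transcription start sites (TSSs) that GENCODE lists for the 4 genes on hg38, each with 1500 bp on either side. These were 113 of the 146431 distinct TSSs of 20033 protein-coding genes, with 67 in FOXP1, 30 in FOXP2, 7 in FOXP3 and 9 in FOXP4. Neighbouring TSSs of a gene within 1500 bp of each other were chained into 37 start-site clusters (23, 8, 2 and 4), because their windows overlap and catch the same islands. FOXP1 lies at chr3:70954693-71583978 on the minus strand, FOXP2 at chr7:114086327-114693772 on the plus strand, FOXP3 at chrX:49250438-49264800 on the minus strand and FOXP4 at chr6:41546381-41602384 on the plus strand. FOXP1 and FOXP2 span 629286 and 607446 bp, whereas FOXP4 spans 56004 bp and FOXP3 14363 bp.

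ChIP-seq peak lists came from 38 libraries of 2 lung cancer lines. Parental, untreated NCI-H661 (H661), a large cell carcinoma line that makes DPPA2 and DPPA4 itself, gave 18 libraries. NCIH1299_DOVE (H1299), labelled lung adenocarcinoma, with stably integrated doxycycline-inducible transgenes for FLAG-DPPA2 and V5-DPPA4, gave 20 libraries, 10 after 7 days of doxycycline at 2 µg/mL (DOX) and 10 after 7 days of water (CTRL). Both H1299 arms carry the transgenes, and no arm without them received doxycycline, so the drug and the proteins cannot be told apart. The histone marks had 2 replicates per group, DPPA2 and DPPA4 had 2 each in H661, and KDM2A and SUZ12 had 1 each. The labels do not say that replicates were separate cultures, so a p-value measures only the spread between these libraries, which may be technical. ChIP-seq on a population also cannot tell fewer cells with a mark from less mark per cell.

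FOXP proteins bind DNA through a forkhead domain and pair with themselves and each other through a leucine zipper, and they mostly repress transcription. FOXP1, FOXP2 and FOXP4 are expressed in the developing lung epithelium and in the brain, where FOXP2 is known for its part in speech and language, and FOXP3 directs the regulatory T cell programme. FOXP1 and FOXP2 are long genes with many alternative first exons that encode shortened as well as full-length proteins. DPPA2 and DPPA4 are DNA-binding partners of the early embryo and embryonic stem cells that are known in mouse for binding CpG-rich promoters.

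The sequence in front of the TSSs differed sharply among these promoters, so 250 bases upstream of 6 TSSs are shown 5′ to 3′ on the gene's strand (hg38), with each CpG dinucleotide in capitals. They are the first TSS of each gene, an internal FOXP1 TSS, and the TSS of the canonical FOXP2 transcript, which lies 328488 bp downstream of the first. The internal FOXP1 TSS was chosen by its peaks. It is the most upstream TSS of its cluster whose stretch overlapped a narrow peak of every DPPA2 and DPPA4 library and no FOXP exon. The stretches are chr7:114086077-114086326 (+), chr6:41546131-41546380 (+), chr3:71583979-71584228 (−), chr3:71064984-71065233 (−), chr7:114414565-114414814 (+) and chrX:49264801-49265050 (−), in the order of the lines, and 0 of them overlapped a FOXP exon.
FOXP2 first TSS: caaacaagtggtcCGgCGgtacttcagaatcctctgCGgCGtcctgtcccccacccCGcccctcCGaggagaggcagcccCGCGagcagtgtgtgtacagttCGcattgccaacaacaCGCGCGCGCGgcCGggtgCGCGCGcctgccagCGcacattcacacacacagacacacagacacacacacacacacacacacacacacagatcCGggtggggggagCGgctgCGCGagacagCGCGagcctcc
FOXP4 first TSS: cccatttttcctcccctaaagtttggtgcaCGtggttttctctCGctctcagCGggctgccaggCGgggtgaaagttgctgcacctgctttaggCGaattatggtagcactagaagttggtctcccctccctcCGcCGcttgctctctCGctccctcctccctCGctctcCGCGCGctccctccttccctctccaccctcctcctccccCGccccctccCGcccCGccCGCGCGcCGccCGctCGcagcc
FOXP1 first TSS: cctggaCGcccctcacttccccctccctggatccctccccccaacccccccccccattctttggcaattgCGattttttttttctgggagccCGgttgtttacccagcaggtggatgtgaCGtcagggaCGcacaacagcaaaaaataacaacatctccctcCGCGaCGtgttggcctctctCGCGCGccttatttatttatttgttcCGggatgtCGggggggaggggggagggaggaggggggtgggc
FOXP1 internal TSS: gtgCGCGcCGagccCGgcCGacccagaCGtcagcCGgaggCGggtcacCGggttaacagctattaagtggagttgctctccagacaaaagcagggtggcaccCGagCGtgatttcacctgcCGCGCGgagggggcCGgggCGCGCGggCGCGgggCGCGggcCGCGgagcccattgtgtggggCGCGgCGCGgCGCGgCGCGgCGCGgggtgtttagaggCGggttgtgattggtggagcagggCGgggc
FOXP2 canonical TSS: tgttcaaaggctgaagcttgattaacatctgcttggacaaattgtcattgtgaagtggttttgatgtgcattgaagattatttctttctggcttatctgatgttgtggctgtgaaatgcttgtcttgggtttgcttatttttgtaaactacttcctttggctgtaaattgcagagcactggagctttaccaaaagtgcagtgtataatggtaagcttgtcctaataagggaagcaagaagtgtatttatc
FOXP3 first TSS: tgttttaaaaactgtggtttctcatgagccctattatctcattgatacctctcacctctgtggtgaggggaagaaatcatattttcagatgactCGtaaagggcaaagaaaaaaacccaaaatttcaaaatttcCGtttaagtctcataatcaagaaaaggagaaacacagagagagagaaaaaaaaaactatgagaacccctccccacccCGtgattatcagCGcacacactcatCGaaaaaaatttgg

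The FOXP1 internal stretch held 36 CpGs, a number that 6.95% of the 20033 canonical promoters reached, and the median canonical promoter held 18. That stretch was chosen by its DPPA2/4 peaks. Over the windows of its whole cluster there were 3.74 CpGs per 100 bp, which 51.8% of canonical promoters reached. The FOXP2 first TSS had 25 (reached by 30.7%), FOXP4 had 21 (42.6%) and the FOXP1 first TSS had 13 (64.2%). By contrast FOXP3 had 5 (81.0%) and the FOXP2 canonical TSS had 0. The forkhead motif TGTTTAC, searched on both strands, occurred once, upstream of the FOXP1 first TSS, and 2.09% of canonical upstream stretches hold it. A letter match is not a bound site.

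Counts over all 113 TSSs were read against the share of all 146431 windows. A DPPA2/4 consensus peak touched 14 FOXP windows (12.4%, against 19.8% of all windows). For it, narrow peaks of the 2 libraries of each factor had to overlap reciprocally by over 25%. The joined DPPA2 and joined DPPA4 peaks then had to overlap each other in the same way. KDM2A, a demethylase that binds unmethylated CpGs, touched 20 (17.7%, against 7.62%). SUZ12, a subunit of Polycomb repressive complex 2, touched 36 (31.9%, against 8.83%), 27 of them in FOXP1 and 9 in FOXP2. Since 1 peak can touch many overlapping windows, these shares describe few loci: the 36 SUZ12 windows belong to 3 clusters, the 20 KDM2A windows to 2 and the 14 consensus windows to 2. Among canonical promoters, 1 per gene, 26.3% held a consensus peak and 15.6% a SUZ12 peak, and FOXP4 was the only FOXP gene with a consensus peak at its canonical TSS.

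Histone marks were called at a TSS where both replicates had an EPIC2 island in its window. In H661, H3K27ac, the mark of active promoters and enhancers, was called at 50 FOXP TSSs (44.2%, against 50.1% of all windows), and H2AK119ub, set by Polycomb repressive complex 1, at 37 (32.7%, against 17.1%). The enhancer mark H3K4me1 was called at 13 (11.5%, against 25.5%), H3K36me2 at 2 (1.77%, against 4.49%), H3K36me3, the mark of transcribed gene bodies, at 4 (3.54%, against 20.1%), and the heterochromatin mark H3K9me3 at 0 (against 2.67%). At canonical promoters H3K27ac was called in 58.1% of all genes and in 3 of the 4 FOXP genes, with FOXP3 the exception.

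In H1299 H3K27ac, H2AK119ub and H3K36me3 were called at fewer FOXP TSSs than in H661, and H3K4me1 at fewer in DOX but more in CTRL. H3K27ac was called at 28 in DOX (24.8%, against 42.6% of all windows) and 21 in CTRL (18.6%, against 32.1%). H2AK119ub was called at 0 in DOX (against 9.04%) and 5 in CTRL (4.42%, against 6.6%), and H3K4me1 at 7 in DOX (6.19%, against 37.3%) and 27 in CTRL (23.9%, against 31.4%). H3K36me3 was called at 2 in DOX (1.77%, against 22.6%) and 1 in CTRL (0.885%, against 18.8%), and H3K9me3 at 0 in DOX and 0 in CTRL (against 0.214% and 0.222%). Of the changes with DOX, H3K27ac was gained, present in both DOX and neither CTRL library, at 3 TSSs (2.65%, against 4.04% of all windows) and lost at 0 (against 0.104%). H3K27ac present in both H661 and neither CTRL library marked 20 TSSs (17.7%, against 11.8%), and H3K4me1 present in both CTRL and neither H661 library marked 7 (6.19%, against 8.94%).

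**Figure D1:**
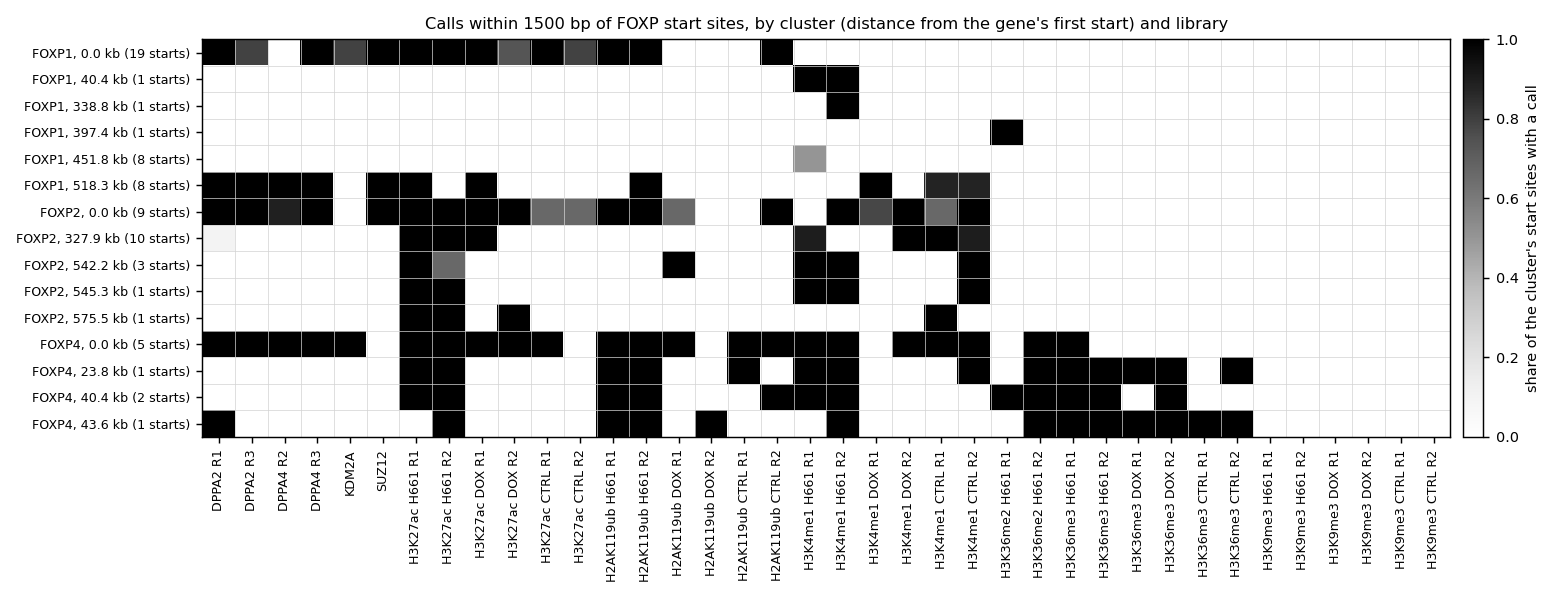
Share of the TSSs of each FOXP cluster (rows, with the distance of the cluster from the gene's first TSS) whose window of 1500 bp on either side held a call in each library (columns; MACS2 narrow peaks for the factors, EPIC2 islands for the marks), from white for 0 to black for 1. The 15 clusters with any call are drawn. At 4 of them 3 or 4 of the DPPA2/4 columns are filled, and the H3K36me3 columns are filled only along FOXP4.

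Reads in islands differed between the lines. The lists hold no total read counts, so sequencing depth itself was not measured. Islands held 488201 to 6961886 reads per H661 library and 137991 to 3657645 per H1299 library. In the H1299 lists 17.9% to 62.8% of islands had 0 input reads, against 0.112% to 9.69% in the H661 lists, so folds in H1299 rest on few input reads. The DOX R1 H3K27ac library stood apart with 2777360 reads in islands, against 979366 in DOX R2 and 774886 and 759619 in CTRL. H3K27ac was called at the promoters of the DPPA2 and DPPA4 genes themselves in H661 (2 of 2), and at 0 of 2 in DOX and 0 of 2 in CTRL. Both H1299 arms carry the transgenes, and only DOX received doxycycline to induce them. Lung epithelial markers were at 2 of 5 in H661 (NKX2-1 and AQP5), 0 in DOX and 0 in CTRL, general epithelial markers at 4, 2 and 2 of 6, mesenchymal markers at 2, 3 and 2 of 3, squamous markers at 0 of 2 in each, and endothelial markers at 1 (PECAM1), 0 and 0 of 2.

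Narrow DPPA2/4 peaks lay mostly at the clusters of FOXP1, FOXP2 and FOXP4 that hold a CpG island. A CpG island lay in 4 of the 37 clusters, and 72.9% of all canonical promoters hold one. The definition asked for 500 bp in which GC content reached 55% and the CpG number reached 0.65 of that predicted from base composition. The 4 were the FOXP4 first cluster (7.74 CpGs per 100 bp), the FOXP1 first cluster (5.75), the FOXP2 upstream cluster (5.66) and a FOXP1 internal cluster 518291 bp into the gene (3.74). Narrow DPPA2 or DPPA4 peaks touched them in 4, 3, 4 and 4 of the 4 libraries. Of the other 33 clusters, 31 had none and 2 had a peak in the DPPA2 R1 library alone, which holds the most narrow peaks of the 4 (69810, against 26349 to 30497). As a description across clusters that share libraries and genes, no cluster below 3.74 CpGs per 100 bp had a narrow peak in more than 1 library. The broader EPIC2 islands of DPPA2 or DPPA4 were less restricted, in all 4 libraries at the 4 CpG island clusters and in 1 to 3 libraries at 8 of the other 33, the most at the FOXP4 clusters around 41586795 (2.58 CpGs per 100 bp) and 41590027 (2.07).

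**Figure D2:**
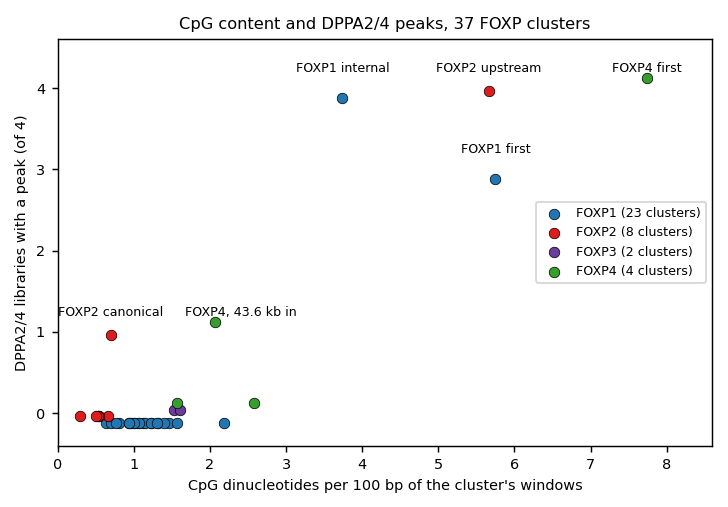
CpG dinucleotides per 100 bp of the windows of each of the 37 FOXP clusters (x axis) and the number of the 4 DPPA2 and DPPA4 libraries with a narrow peak there (y axis, points of the 4 genes offset slightly up or down to keep them apart). The 4 clusters with a CpG island have peaks in 3 or 4 libraries, and the other 33 have peaks in 0 or 1.

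In FOXP2 the DPPA2/4 consensus peak lay at the upstream TSSs and not at the canonical one. The upstream cluster holds 9 TSSs from 114086327 to 114088166, the starts of 10 transcripts of which 6 are coding. Its consensus peak covered chr7:114085819-114086836, 1018 bp across the first TSS. Enrichment over input in the peaks behind it was 8.52-fold in DPPA2 R1, 3.88-fold in DPPA2 R3, 6.19-fold in DPPA4 R2 and 3.48-fold in DPPA4 R3. SUZ12 had 3 peaks in the same windows with folds up to 5.07, and KDM2A had no narrow peak there. With 50% overlap in place of 25%, 0 FOXP TSSs kept a consensus peak.

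H3K27ac at the FOXP2 upstream cluster was widest in H661. Islands there held 160 and 370 reads over 4600 and 4500 bp in H661, 148 and 34 reads over 2200 and 1000 bp in DOX, and 17 and 8 reads over 400 and 400 bp in CTRL. All 6 libraries thus had an island, and DOX and CTRL did not overlap here in reads or in covered length. The share of other promoters with such a gap was not counted. Over the genome both DOX libraries also held more H3K27ac island reads (2777360 and 979366) than CTRL (774886 and 759619). Over whole gene bodies both DOX libraries exceeded both CTRL libraries in H3K27ac cover for 38.3% of genes with an island, and FOXP2 was not among them. The CTRL islands lay between 114084701 and 114086100, in front of the first TSS, whereas the DOX islands reached 114087600 and 114086700, past it. The 3 TSSs that gained H3K27ac in DOX (114087651, 114087747 and 114088166) are the most downstream of the cluster, and the other 6 had islands in all 4 H1299 libraries. With no fold filter on islands the count of gained FOXP TSSs was 0. Without DOX R2, the DOX library with fewer reads in islands, it was 21. The part of the larger number of island reads of DOX R1 in this result was not tested.

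**Figure D3:**
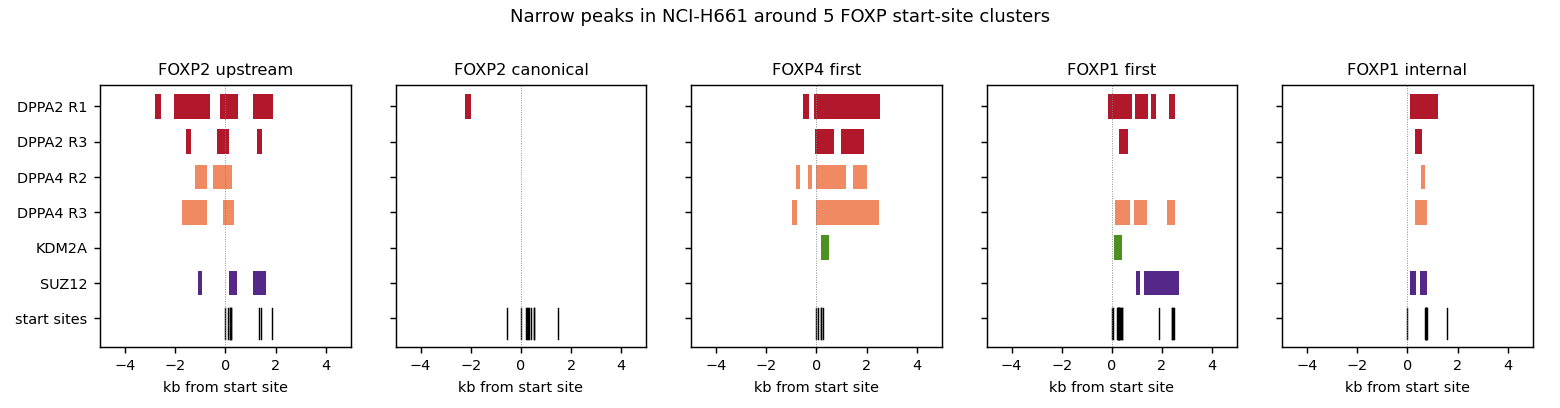
MACS2 narrow peaks of the DPPA2, DPPA4, KDM2A and SUZ12 libraries of H661 (rows) around 5 FOXP clusters (panels), by distance in kb from the panel's start site along the direction of transcription, with TSSs as black ticks. DPPA2 and DPPA4 peaks of all 4 libraries sit at the FOXP2 upstream, FOXP4 first and FOXP1 internal clusters, DPPA4 R2 has none at the FOXP1 first cluster, and 1 DPPA2 R1 peak lies at the edge of the FOXP2 canonical cluster.

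Other marks at the FOXP2 upstream cluster differed between the lines. H2AK119ub islands held 88 and 106 reads over 3400 and 2800 bp in H661, and an island was found in 1 of the 2 libraries in DOX (9 reads) and in 1 of 2 in CTRL (12 reads). H3K4me1 had an island in R2 only in H661 (17 reads), 11 and 38 reads in DOX and 11 and 28 reads in CTRL. The cluster thus carried H3K27ac together with H2AK119ub, SUZ12 and DPPA2/4 in H661. H3K36me2, H3K36me3 and H3K9me3 had no island at this cluster in any library.

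The canonical FOXP2 cluster, 10 TSSs from 114414274 to 114416286, carried H3K27ac in H661 and no DPPA2/4 consensus peak. Its only DPPA2 or DPPA4 narrow peak, in DPPA2 R1 at a fold of 3.84, touched the window of 1 TSS. Broad EPIC2 islands were found in DPPA2 R1 (18 reads, 1 TSS) and DPPA4 R3 (36 reads, 9 TSSs). H3K27ac islands held 98 and 239 reads over 3700 and 5100 bp in H661, DOX R1 had 1 island of 22 reads and DOX R2 none, and CTRL had none. All 10 TSSs were therefore among those with H3K27ac in both H661 and neither CTRL library. H3K4me1 had islands in H661 R1 (52 reads) and not R2, in DOX R2 (24 reads) and not R1, and in both CTRL libraries (8 and 30 reads), where 9 TSSs were called.

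Of the remaining FOXP2 clusters, 3 near the 3′ end carried H3K27ac in both H661 libraries. They start at 114628558, 114631653 and 114661792. The first of them also had H3K4me1 in both H661 libraries (49 and 26 reads), as did the second (25 and 26 reads, from an island the windows share). In H1299 these 3 clusters had no mark in both replicates of a group. The clusters at 114163041, 114288019 and 114426500 had no narrow peak and no histone island in any library. FOXP2 accounted for 17 of the 20 TSSs with H3K27ac in both H661 and neither CTRL library.

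**Figure D4:**
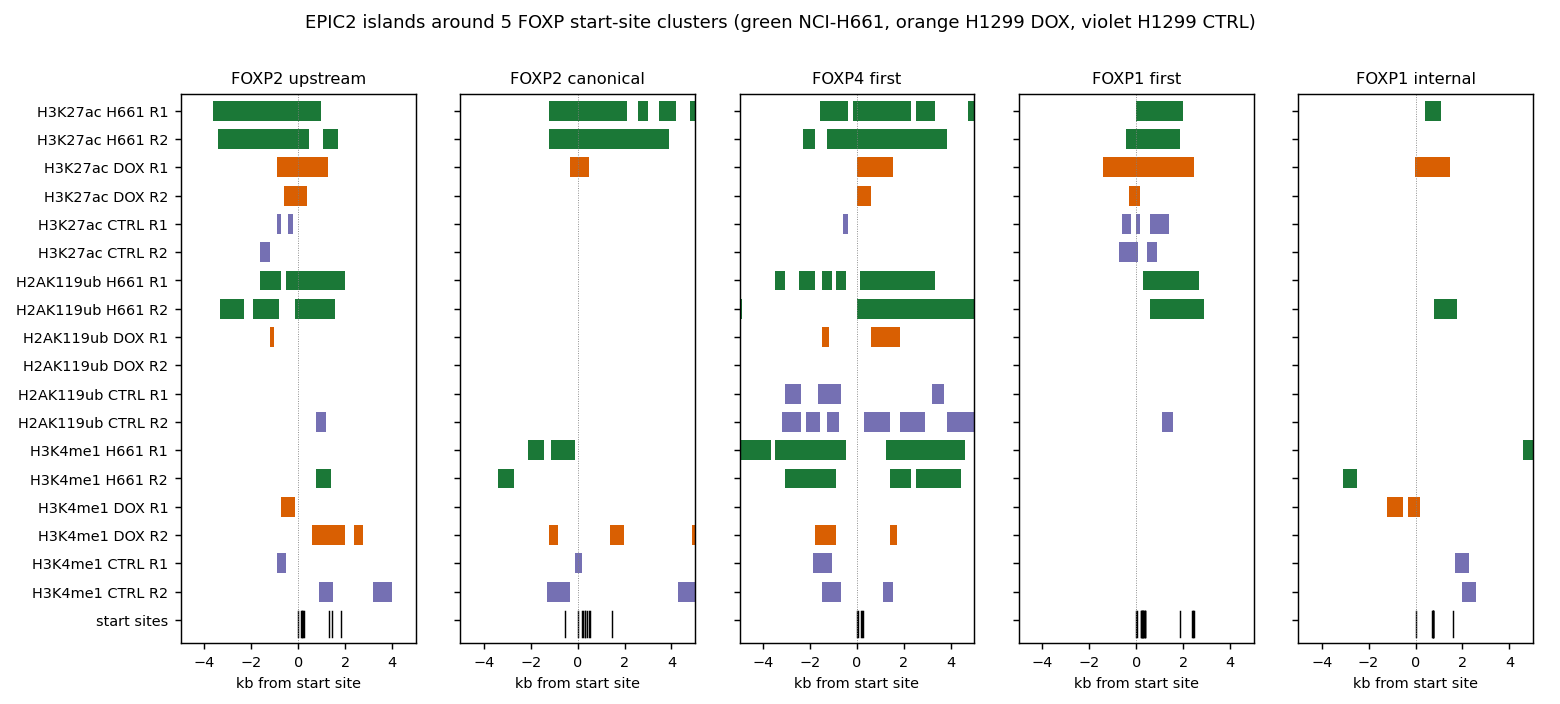
EPIC2 islands of H3K27ac, H2AK119ub and H3K4me1 in each library (rows; H661 green, DOX orange, CTRL violet) around the same 5 clusters, by distance in kb from the panel's start site, with TSSs as black ticks. H3K27ac islands at the FOXP2 upstream cluster are 4600 and 4500 bp wide in total in H661, 2200 and 1000 bp in DOX and 400 bp in each CTRL library, and the canonical FOXP2 cluster has H3K27ac in H661 and DOX R1 only.

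FOXP4 had the strongest DPPA2 peak of the family. The consensus peak covered chr6:41546276-41548927 (2652 bp) from the 5 TSSs between 41546381 and 41546648 into the gene. Enrichment was 15.7-fold and 9.36-fold in the DPPA2 libraries and 4.98-fold and 8.28-fold in the DPPA4 libraries, and KDM2A had a peak of 6.64 inside it, while SUZ12 had none. The antisense lncRNA FOXP4-AS1 starts at 6 sites between 41546143 and 41547548, inside the same windows, and the peak lists cannot separate the 2 genes. Input reads per kb in the H661 islands here were 1.41 to 1.92 times the median promoter island of the same library (13 libraries), against 0.941 to 1.75 at the FOXP2 upstream cluster (10 libraries). The part of input density in the FOXP4 values was not tested.

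Marks at the FOXP4 first cluster were called in H661 for H3K27ac (islands over 3700 and 5100 bp), H2AK119ub (146 and 314 reads) and H3K4me1 (198 and 140 reads). H3K27ac islands covered 1500 and 600 bp in DOX (46 and 16 reads) and 200 bp in CTRL R1 only (9 reads). H2AK119ub had islands in DOX R1 only (38 reads) and in both CTRL libraries (25 and 58 reads). H3K4me1 likewise had islands in DOX R2 only (40 reads) and in both CTRL libraries (21 and 37 reads). In each of these H1299 contrasts 1 of 4 libraries lacked the island, so FOXP4 entered neither the gained nor the lost counts.

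Inside FOXP4 the other 4 TSSs (41570174, 41586795, 41586967 and 41590027), all of noncoding transcripts, lay in chromatin marked along the gene body. H3K36me3 and H2AK119ub were called at all 4 in H661. H3K36me3 was called in DOX at 41570174 (44 and 14 reads) and 41590027 (17 and 25 reads), and in CTRL at 41590027 alone (27 and 10 reads). H3K27ac and H3K4me1 were called in H661 at the first 3 of them. DPPA2 R1 had 2 narrow peaks at 41590027, with folds up to 6.37, and the other DPPA2/4 libraries had no narrow peak there, although DPPA4 R2 and R3 had EPIC2 islands of 122 and 84 reads.

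FOXP1 had DPPA2/4 peaks at 2 clusters with a CpG island and a consensus peak at neither. The first cluster holds 19 TSSs from 71581516 to 71583978. DPPA2 R1 had 4 peaks there with folds up to 10.3, DPPA2 R3 had 1 of 5.36, DPPA4 R3 had 3 up to 6.65, and DPPA4 R2 had none. A broad DPPA4 R2 island of 2900 bp with 83 reads did cover the cluster, and without DPPA4 R2 the number of FOXP TSSs with a consensus peak was 29 in place of 14. KDM2A had a peak of 6.06 near the first TSS, and SUZ12 had its strongest FOXP peak, a fold of 12 over 71581304 to 71582699, downstream of it.

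H3K27ac at the FOXP1 first cluster was found in all 6 libraries. Islands held 50 and 120 reads in H661, 131 and 11 reads in DOX and 37 and 27 reads in CTRL. The DOX libraries lay on either side of CTRL, over 3900 and 500 bp, so the groups overlapped. H2AK119ub held 59 and 92 reads in H661, had no island in DOX and had 1 of 15 reads in CTRL R2. The lncRNA genes FOXP1-DT (71584943) and ENSG00000277855 (71581721) start inside these windows on the other strand.

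The FOXP1 internal cluster holds 8 TSSs from 71064095 to 71065687, the starts of 8 transcripts of which 4 are coding. Every DPPA2/4 library had 1 narrow peak there, enriched 7.24-fold and 4.82-fold with DPPA2 and 7.32-fold and 6.64-fold with DPPA4. The peaks were 1124 and 271 bp wide with DPPA2 and 167 and 475 bp wide with DPPA4. In each pair the narrower peak lay within the wider one. The DPPA4 pair passed the overlap rule, and the DPPA2 pair fell just short of 25% of its wider peak. At 25% of either peak the cluster's 8 TSSs raised the FOXP count to 22. SUZ12 had 2 peaks of 3.87 and 4.48. H3K27ac had an island in H661 R1 (17 reads) and in DOX R1 (41 reads) only. H2AK119ub had an island in H661 R2 only (30 reads), and KDM2A had an EPIC2 island (15 reads) without a narrow peak. H3K4me1 had islands in both CTRL libraries (13 and 13 reads, calling 7 TSSs), in DOX R1 only (21 reads), and in neither H661 library, and these 7 are all FOXP TSSs with H3K4me1 in both CTRL and neither H661 library.

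The other 21 FOXP1 clusters were nearly empty. H3K4me1 was called at 71543557 in H661 (22 and 18 reads), and 3 clusters had 1 island in 1 H661 library each. The other 17 had no narrow peak of any factor and no histone island in any library. Calls of FOXP1 thus lay in the 19 TSSs of the first cluster, the 8 of the internal cluster and 1 further TSS.

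FOXP3 had no narrow peak and no EPIC2 island of any of the 38 libraries in the windows of its 7 TSSs or in its gene body. Its canonical promoter was 1 of 1774 of the 20033 that had no island in any library. DPPA2 and DPPA4 peaks in all 4 libraries had their centres at -5130 to -5720 bp from its first TSS, upstream of the windows, with folds of 6.78 to 13.2. Start sites of other genes were looked up only inside the FOXP windows, so these peaks are not assigned to FOXP3. The T cell and blood genes PTPRC, CD3E, CD4, CD8A and IL2RA likewise had no promoter H3K27ac call in H661, DOX or CTRL.

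Along the gene bodies FOXP4 differed from the other members. H3K36me3 islands covered 81.4% and 67.7% of FOXP4 in H661, 11.1% and 11.6% in DOX, and 1.96% and 3.93% in CTRL. Only 5.74% and 3.42% of all genes were covered as much in the H661 libraries. Both DOX libraries lay above both CTRL libraries, as they did for 46.0% of the genes with an island, and islands covered 129 and 126 Mb of the genome in DOX against 98.6 and 102 Mb in CTRL. FOXP1 had 0.143% and 0% cover in H661 and 0% in the 4 H1299 libraries, and FOXP2 had 0.444% and 0.0988% in H661, 0.181% and 0% in DOX and 0% in both CTRL libraries.

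Cover by the other marks of FOXP4 was also highest in H661. H2AK119ub covered 35.4% and 65.5% in H661, 4.64% and 4.46% in DOX, and 5.36% and 12.5% in CTRL. Both DOX libraries lay below both CTRL libraries here, as in 9.59% of genes with an island. H3K27ac covered 38.4% and 62.2% in H661, 9.46% and 1.07% in DOX, and 0.536% and 1.43% in CTRL, so DOX and CTRL overlapped. H3K4me1 covered 31% and 48.7% in H661, 7.32% and 6.43% in DOX, and 5.54% and 7.86% in CTRL. H3K36me2, measured in H661 only, covered 1.25% in R1 and 47.1% in R2 of FOXP4, so its replicates did not give a common level there, and it covered 1.22% and 2.18% of FOXP1 and 2.78% and 2.19% of FOXP2.

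Both H661 libraries lay above both CTRL libraries in body cover for FOXP1, FOXP2 and FOXP4 in H3K27ac (57.6% of genes with an island did), H2AK119ub (34.8%) and H3K4me1 (34.9%), and for FOXP2 and FOXP4 in H3K36me3 (37.0%). The H661 lists hold more reads in islands for these marks, and sequencing depth was not measured. Cell line, DPPA2/4 and depth cannot be told apart in this comparison. For FOXP2 the widest gap was in H3K4me1, at 10.2% and 2.88% in H661, 0.214% and 0.823% in DOX, and 0.379% and 0.675% in CTRL. FOXP2 H3K27ac cover was 3.45% and 2.19% in H661, 0.49% and 0.16% in DOX, and 0.313% and 0.198% in CTRL. FOXP1 H3K27ac cover was at most 0.696%, in DOX R1, and 0.426% and 0.298% in H661.

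**Figure D5:**
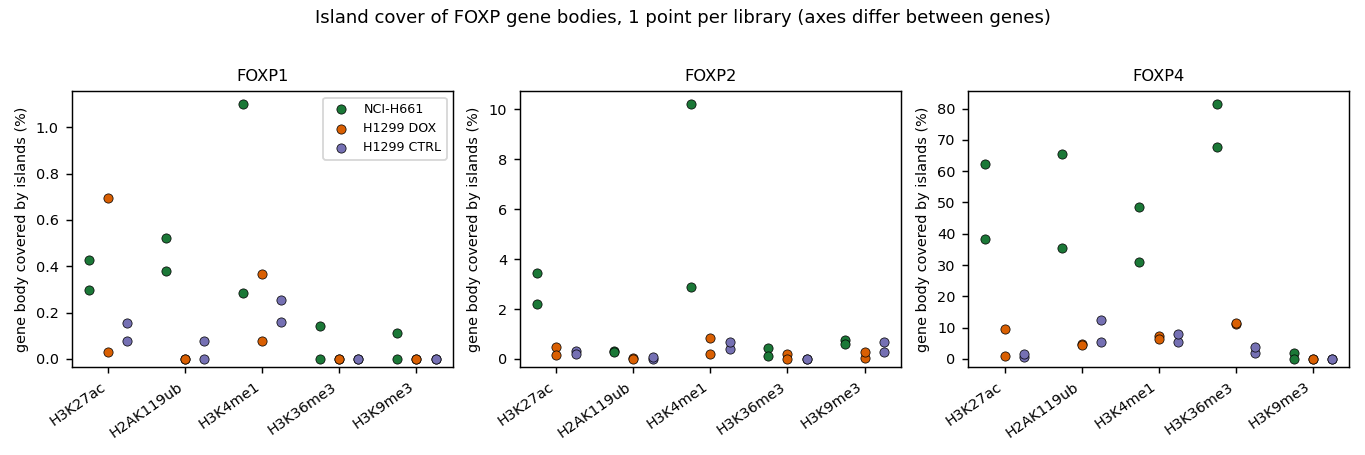
Percentage of the gene body of FOXP1, FOXP2 and FOXP4 covered by EPIC2 islands of the 5 marks measured in both lines, 1 point per library (H661 green, DOX orange, CTRL violet; the y axes differ between genes). FOXP4 H3K36me3 stands at 81.4% and 67.7% in H661, 11.1% and 11.6% in DOX and 1.96% and 3.93% in CTRL, whereas FOXP1 is at most 1.1% for the marks drawn, with H3K4me1 in H661 R1.

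Read counts were compared in regions with an island in each of the 4 libraries, fitted over all such regions of the genome with edgeR's quasi-likelihood test and Benjamini-Hochberg (BH) adjustment. The planned rule, islands over at least 50% of a region in every library, left 0 FOXP regions, so values below come from the fit with no coverage minimum. It held 13 FOXP regions, 3 for DOX against CTRL and 10 for H661 against CTRL. Calls needed an adjusted p under 0.05 with a log2 difference of 0.5 or more in either direction, which for DOX gave 0.029% of 10335 H3K27ac and 0.0331% of 18148 H3K4me1 regions and 0 of the 3 in FOXP genes. For H661 against CTRL it gave 23.1% of H3K27ac, 15.8% of H2AK119ub, 21.4% of H3K4me1, 13% of H3K36me3 and 8.12% of H3K9me3 regions, and 3 of the 10 in FOXP genes.

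For DOX against CTRL, the FOXP1 first cluster had a log2 H3K27ac change of −0.46 (SE 0.53, edgeR BH-adjusted p = 0.945). The 2 FOXP4 H3K4me1 regions, within chr6:41577701-41579700 and chr6:41580101-41583200, had log2 changes of 0.35 and 0.26 (SE 0.5 and 0.39, edgeR BH-adjusted p = 0.919 and 0.925). Each of these 3 changes turned sign without 1 of the libraries. Their unadjusted p-values were 0.41, 0.51 and 0.52, and DESeq2 also called 0 of the 3. No change with DOX was detectable in these 3 regions with these read counts. The H3K27ac islands at the FOXP2 upstream and FOXP4 first clusters formed no region with an island in each of the 4 libraries. These clusters were therefore not tested for H3K27ac.

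For H661 against CTRL, H3K27ac was higher at the FOXP2 upstream promoter. The region chr7:114082701-114087300 held 160 and 344 reads in H661 and 17 and 8 reads in CTRL, a log2 difference of 2.93 (SE 0.38, edgeR BH-adjusted p = 0.00493). Islands covered 4600 and 3900 bp of it in H661 and 400 and 400 bp in CTRL, and per covered length the log2 difference was 0.10 (adjusted p = 0.897). H3K36me3 over the 3′ part of FOXP4, chr6:41579601-41592100, held 463 and 603 reads in H661 and 27 and 10 reads in CTRL, a log2 difference of 4.21 (SE 0.67, edgeR BH-adjusted p = 0.00242), with islands over 11800 and 11500 bp in H661 and 800 and 400 bp in CTRL. Per covered length it was 0.10 (adjusted p = 0.878), and without H661 R2 it was 1.43 (adjusted p = 0.412).

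H2AK119ub over chr6:41581301-41595700, also in FOXP4, held 265 and 735 reads in H661 and 38 and 41 reads in CTRL, a log2 difference of 1.72 (SE 0.58, edgeR BH-adjusted p = 0.0294). The call was lost without H661 R1 (2.27, adjusted p = 0.0854), without H661 R2 (0.45, adjusted p = 0.784) and per covered length (0.09, adjusted p = 0.884). Islands in H661 were longer in all 3 regions, and read density within islands passed the test in none of them. Only reads in islands that passed the fold and FDR filters were counted. Density within islands therefore cannot show the level outside them, and the full-region counts hold no reads from there. The values per covered length and without a library were added after the data had been seen. The H3K27ac region of the FOXP1 first cluster was at −0.02 (SE 0.34, edgeR BH-adjusted p = 0.977), and the other 6 FOXP regions had log2 differences of −1.45 to 1.45 and did not pass, although 3 of them, all in FOXP4, passed under at least 1 alternative.

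Promoters of genes that FOXP proteins work with were described by counts, from lists chosen with results of these data known. Of 23 genes of known FOXP partners, among them NuRD subunits and transcription factors, 11 (47.8%) had a consensus peak at the canonical promoter, against 26.3% of all genes. They included the NuRD genes MTA1, MTA2, GATAD2A, HDAC2 and RBBP4 and the lung lineage factor NKX2-1. The other NuRD genes of the list had no consensus peak. H3K27ac was called at 18 in H661, 17 in DOX and 18 in CTRL, against 58.1%, 51.3% and 38.3% of all canonical promoters, and gained in DOX at 0 (against 5.03%).

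Of 18 genes known as FOXP targets in neural, lung or T cells, 2 had a consensus peak (11.1%; TNFRSF18 and TBX4) and 7 a SUZ12 peak (38.9%, against 15.6% of all genes), among them the neurexin-family gene CNTNAP2, SRPX2, DISC1 and the receptor tyrosine kinase gene MET. H3K27ac was called at 4 in H661, 4 in DOX and 3 in CTRL, each a smaller share of the list than over all promoters. MET was the 1 target promoter that gained H3K27ac in DOX, which is near the share of 5.03% over all promoters.

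Gene promoters with profiles most like those of the FOXP genes were named by Pearson's r over the 38 libraries, from the log2 island read density at the canonical promoter scaled within each library. FOXP1 was closest to ZEB1 (r = 0.99), TNRC18 (0.97) and PFKP (0.93), and FOXP4 to PLEKHN1 (0.88), CERK (0.84) and PEDS1-UBE2V1 (0.84). The canonical FOXP2 promoter had lower values, with SPARC (0.69), DVL3 (0.67) and PPP1R42 (0.67), and FOXP3, with no island, had none. The points share cell lines, inputs and depth, so r is a description only.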

How the data were processed

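ChIP-seq of 42 samples (38 ChIP libraries and 4 inputs) was taken from 44 deposited lists. The authors trimmed reads with Trim Galore 0.6.6, aligned them to hg38 (GRCh38.p13) with BWA 0.7.13 and processed them with SAMtools 1.9 and Picard 2.6.0. Each EPIC2 island carries, as deposited by the authors, the log2 fold change over input, a score, read counts of ChIP and input, and a p-value with its FDR. The 6 MACS2 lists give the authors' fold enrichment ratio, signal, score and −log10 p- and q-values per narrow peak. Islands with a log2 fold above 1 and FDR below 0.05 were kept. Start sites came from GENCODE release 44, and windows were 1500 bp on either side. Sequences were read from the hg38 genome.

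Counts summed over joined islands were fitted for all regions with edgeR 4.0.16 (R 4.3.3; TMM, quasi-likelihood, Benjamini-Hochberg), and with DESeq2 1.42.0 as an alternative. The replicate number was a block for DOX against CTRL only. The script was tested on simulated data. Reads within islands are all the lists hold, so where a library lacks an island its level is not measured. Python 3.11.15, numpy 2.4.6, pandas 2.3.3 and matplotlib 3.10.9 were used for the rest. All FOXP start sites were accounted for, those with a DPPA2/4 peak or a mark that differed between groups were described in full, and the 3 promoters with the highest r to each gene were named. Members and gene lists were chosen with earlier results of these data known. H3K4me3 and H3K27me3 were not analysed here. Some genes of the marker and partner lists are not reported here.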

Additional observations from a re-analysis of the deposited data

How the results depend on the processing

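The number of FOXP start sites with a DPPA2/4 consensus peak (14) was 0 with 50% overlap of each peak, 22 with 25% of either peak, 41 with EPIC2 islands, 5 with a log2 fold above 2, and 14 to 29 without 1 of the 4 libraries (29 without DPPA4 R2). The count with H3K27ac in both DOX and neither CTRL library (3) was 0 with no fold filter and 3 to 21 without 1 library (21 without DOX R2, 8 without CTRL R1). The count with H3K27ac in both H661 and neither CTRL library (20) was 8 with a log2 fold above 2, 12 with protein-coding transcripts only, and 20 to 29 without 1 library.

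Regions called over the genome for DOX against CTRL at 50% coverage numbered 17 for H3K4me1, 17 for H3K36me3 and 0 for each of H3K27ac, H2AK119ub and H3K9me3 (at an unadjusted p below 0.05, 189, 6 and 5, and with DESeq2 0). With no coverage minimum they were 3 for H3K27ac, 6 for H3K4me1, 178 for H3K36me3 and 1 for H3K9me3. DESeq2 and counts per covered length gave 0 for H3K4me1 and 0 for H3K36me3, and no fold filter gave 1 for H3K27ac, 10 for H3K4me1 and 5 for H3K36me3. Without 1 library they were 0 to 29 for H3K27ac, 0 to 17 for H3K4me1 and 0 to 56 for H3K36me3. For H661 against CTRL 627 H3K27ac, 5 H2AK119ub, 153 H3K4me1, 140 H3K36me3 and 0 H3K9me3 regions were called. With no coverage minimum these were 1946, 313, 1819, 1708 and 72 in that order, DESeq2 gave 347 for H3K27ac and 79 for H3K4me1, at least 20 reads gave 10 for H2AK119ub, and per covered length there were 1 for H2AK119ub, 82 for H3K4me1 and 64 for H3K36me3. Without 1 library the counts were 647 to 1321 for H3K27ac, 0 to 21 for H2AK119ub, 0 to 398 for H3K4me1, 5 to 1328 for H3K36me3 and H3K9me3 ranged over 0 to 2. The cause of these shifts was not tested.

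Without the replicate block the DOX counts were 10 for H3K36me3, 1 for H3K9me3 and 0 for each of H3K27ac, H2AK119ub and H3K4me1. With the replicate block the H661 counts were 671 (H3K27ac), 6 (H2AK119ub), 166 (H3K4me1), 113 (H3K36me3) and 0 (H3K9me3). Same-numbered libraries deviated together with correlations of 0.26, 0.10, 0.039, 0.077 and 0.057 in H1299 (marks in that order), and 0.13, 0.068, 0.021, 0.0015 and -0.34 between H661 and CTRL, which share only a number. The block changed no call of a FOXP region.

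Alternatives for FOXP regions, added after the data had been seen, turned 6 uncalled log2 values. FOXP1 H3K27ac for DOX was 0.06 without CTRL R1 and 0.52 without DOX R2. The FOXP4 H3K4me1 regions for DOX were -0.15 without CTRL R2 and -0.41 without DOX R1. FOXP1 H3K27ac for H661 was 0.0 with the replicate block, 0.14 with at least 20 reads, 0.14 without CTRL R1, 0.1 without H661 R1 and 0.06 without H661 R2. FOXP4 H3K27ac was -0.23 per covered length and 0.0 without H661 R2, and FOXP4 H2AK119ub at the first cluster was -0.44 without CTRL R1. With 2 libraries a group and H3K27ac islands of 8 to 148 reads in H1299 at the first clusters, smaller differences could not be detected.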
